A study of Mus musculus with 14 samples.

Results

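The 3 methylated forms of histone H3 lysine 4 were compared with each other in mouse embryonic stem cells grown with MM-401, an inhibitor of the methyltransferase MLL1. The comparison used the peak lists (lists of enriched regions) of H3K4me1, H3K4me2 and H3K4me3 from these cells, which are 3 of the 14 libraries of the study. They held 82150, 60348 and 32191 peaks, together 174689 of the 711433 peaks in the 9 methylation lists. The members are the features on which these peaks lay: 43774 ends of 21887 protein-coding genes, and 66376 distal regions of 83980 regions in all.

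The cells were derived from C57BL/6J blastocysts and carried the genotype Mll1fl/fl; Cre-ER TM, so floxed Mll1 alleles and an inducible Cre were present in every group, controls included. They grew without feeder cells on Matrigel, with leukemia inhibitory factor, 5% serum and 15% KSR. MM-401 was given at 100 µM for 9 days (3 passages), 4-hydroxytamoxifen (4-OHT, which activates the Cre) at 5 µM for the same time, and a group was left untreated. Each group is 1 library per mark, whose culture is not further described, so no difference was tested. Intervals are 95% intervals. Those of shares and of ratios at 1 gene cover counting error only. Those of medians are intervals of the median itself over the genes or regions of 1 library per mark. They are not the range over which single genes or regions vary.

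Methylation of H3K4 is placed by several enzyme complexes of the SET1 and MLL families and is added stepwise, so 1 tail carries either the mono-, the di- or the trimethyl form. In mammalian cells H3K4me3 is typical of the first nucleosomes of active or poised genes, H3K4me2 spreads around it, and H3K4me1 marks enhancers and the outer flanks of promoters. In embryonic stem cells many silent developmental genes carry H3K4me3 as well, together with a repressive mark, so a peak at a gene start does not show that the gene is transcribed.

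The MM-401 libraries held 22.2, 19.8 and 12.9 M tags (M for 1000000) after removal of duplicates for H3K4me1, H3K4me2 and H3K4me3, with 58.5%, 72.4% and 85.6% of these tags in peaks. A share of 31.6% of the H3K4me3 peaks stood at the upper limit of the peak score, against 6.85% of H3K4me2 and 0.0316% of H3K4me1 peaks, while all 3 lists ended at nearly the same lowest score. Of 8 markers of embryonic stem cells 7 had all 3 marks at the start (Pou5f1, Nanog, Sox2, Zfp42, Sall4, Dppa4 and Utf1). The exception was Esrrb, whose outermost start had H3K4me1 alone and another annotated start all 3. All 3 marks also lay on 5 of 9 markers of fibroblasts or feeder cells, on 3 of 4 trophoblast markers and on 2 of 4 primitive endoderm markers, against 61.5% of all gene starts. Col3a1, Dcn, Lum, Postn, Elf5, Gata4 and Afp had no peak within 1 kb of the outermost start.

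A gene end was counted as carrying a mark when a peak came within 1 kb of it. The start was the end given by the strand of the annotation for 17492 genes and the end with more H3K4me3 cover for the other 4395. It is the outermost coordinate of the gene, so a gene without a mark there can carry it at an inner start. Peaks of the 3 lists that overlapped by at least 1 bp were joined into regions, and a region was distal when no part came within 1 kb of a gene end. Levels are tags of all peaks touching a feature per M filtered tags, and the H3K4me1:H3K4me3 ratio is the quotient of these levels within a feature. The marks come from different antibodies, so ratios order features, and a ratio of 1 does not mean equal amounts of the marks. Where a mark is called higher, lower, above or below another, only its tags per M are meant. A tag sum grows with the width of the peak, so levels are also given per kb of peak where features are set side by side.

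Promoters of 5 genes are printed because each stands for another combination of marks. They are the RefSeq promoters (build GRCm38.p6, which is mm10) of the gene with the most tags in its combination that had one, 300 bases from 250 before to 50 after an annotated start, read 5′ to 3′ on the strand of the gene. Capitals mark each CG dinucleotide. Trim71 (all 3 marks) lies at chr9:114564320-114564619 on the minus strand, Foxo3 (H3K4me2 with H3K4me3) at chr10:42276646-42276945 on the minus strand, Lrrc2 (H3K4me1 with H3K4me2) at chr9:110951295-110951594 on the plus strand, Hpse2 (H3K4me2 alone) at chr19:43388306-43388605 on the minus strand and Vmn2r29 (H3K4me3 alone) at chr7:7278240-7278539 on the minus strand. None was printed for H3K4me1 alone or for H3K4me1 with H3K4me3.
Trim71: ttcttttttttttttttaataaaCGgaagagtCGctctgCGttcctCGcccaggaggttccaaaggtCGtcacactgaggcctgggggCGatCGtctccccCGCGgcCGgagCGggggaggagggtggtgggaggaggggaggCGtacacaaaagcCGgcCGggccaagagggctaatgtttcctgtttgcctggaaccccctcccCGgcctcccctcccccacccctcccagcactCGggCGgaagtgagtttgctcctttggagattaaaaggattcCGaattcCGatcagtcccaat
Foxo3: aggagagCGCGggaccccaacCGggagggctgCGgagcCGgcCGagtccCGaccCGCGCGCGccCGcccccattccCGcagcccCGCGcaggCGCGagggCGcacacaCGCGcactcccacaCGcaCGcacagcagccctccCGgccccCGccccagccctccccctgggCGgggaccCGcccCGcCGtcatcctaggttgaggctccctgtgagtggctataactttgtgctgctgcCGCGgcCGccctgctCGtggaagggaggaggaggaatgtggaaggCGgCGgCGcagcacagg
Lrrc2: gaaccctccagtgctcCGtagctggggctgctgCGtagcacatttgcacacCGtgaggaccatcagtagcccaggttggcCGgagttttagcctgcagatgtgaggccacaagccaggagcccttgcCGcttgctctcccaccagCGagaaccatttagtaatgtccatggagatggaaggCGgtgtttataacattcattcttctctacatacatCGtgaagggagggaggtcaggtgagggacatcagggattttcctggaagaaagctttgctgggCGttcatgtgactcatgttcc
Hpse2: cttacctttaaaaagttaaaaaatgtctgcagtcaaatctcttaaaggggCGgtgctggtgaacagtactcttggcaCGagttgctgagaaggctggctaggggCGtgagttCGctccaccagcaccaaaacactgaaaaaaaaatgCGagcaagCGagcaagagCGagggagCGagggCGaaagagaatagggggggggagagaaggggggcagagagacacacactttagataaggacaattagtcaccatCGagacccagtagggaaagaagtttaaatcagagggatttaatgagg
Vmn2r29: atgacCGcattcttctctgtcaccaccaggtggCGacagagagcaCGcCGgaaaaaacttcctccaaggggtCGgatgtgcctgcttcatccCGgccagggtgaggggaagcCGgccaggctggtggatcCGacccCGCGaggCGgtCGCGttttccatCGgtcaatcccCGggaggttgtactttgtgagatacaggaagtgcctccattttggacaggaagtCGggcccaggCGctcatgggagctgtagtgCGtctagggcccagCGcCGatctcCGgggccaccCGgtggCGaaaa
The promoters of Trim71 and Foxo3 held 19 and 35 CG, and that of Vmn2r29 held 23. Those of Lrrc2 and Hpse2 held 9 and 10.

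The 3 marks were nested at the level of peaks. Nearly all H3K4me3 peaks touched H3K4me2: 96.5% (96.3 to 96.7) of them overlapped an H3K4me2 peak and 68.2% lay entirely inside one. H3K4me1 overlapped 79.8% (79.3 to 80.2) of the H3K4me3 peaks and enclosed 39.1%. Of the H3K4me2 peaks, 85.3% overlapped H3K4me1 and 49.8% overlapped H3K4me3. H3K4me1 was the mark most often on its own, with 66% of its peaks on H3K4me2 and 37.9% on H3K4me3. It covered 221 Mb of the genome, against 152 Mb for H3K4me2 and 73.2 Mb for H3K4me3, while the median peak was of like width in each list, at 1982, 1937 and 1891 bp.

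Most marked gene starts carried all 3 marks. Of 21887 starts, 13461 (61.5%, 60.9 to 62.1) had H3K4me1, H3K4me2 and H3K4me3, and 6389 (29.2%) had none. H3K4me2 with H3K4me3 and no H3K4me1 stood at 707 starts (3.23%, 3 to 3.47), and H3K4me1 with H3K4me2 and no H3K4me3 at 696 (3.18%, 2.95 to 3.42). A single mark was rarer: H3K4me1 alone at 452 starts (2.07%), H3K4me2 alone at 161 (0.736%) and H3K4me3 alone at 20 (0.0914%). H3K4me1 with H3K4me3 and no H3K4me2 stood at 1 start (0.00457%).

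The other end of the gene looked different. Of the far ends of the 17492 genes with a strand, 2415 (13.8%) had all 3 marks, 1389 (7.94%) H3K4me1 with H3K4me2 and 1338 (7.65%) H3K4me1 alone, and 11995 (68.6%) had none. Over both ends of all genes the counts were 16428 with all 3 marks (37.5%), 910 with H3K4me2 and H3K4me3 (2.08%), 2413 with H3K4me1 and H3K4me2 (5.51%) and 2134 with H3K4me1 alone (4.88%). These counts move with the length of the lists and with the window. When each list was cut to its 32191 highest-scoring peaks, they were 9941 with all 3 marks, 7125 with H3K4me2 and H3K4me3, 966 with H3K4me1 and H3K4me2 and 1326 with H3K4me1 alone. H3K4me2 with H3K4me3 stood at 2600 ends with a score of at least 100 in every list and at 1526 within 500 bp of the end.

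**Figure D1:**
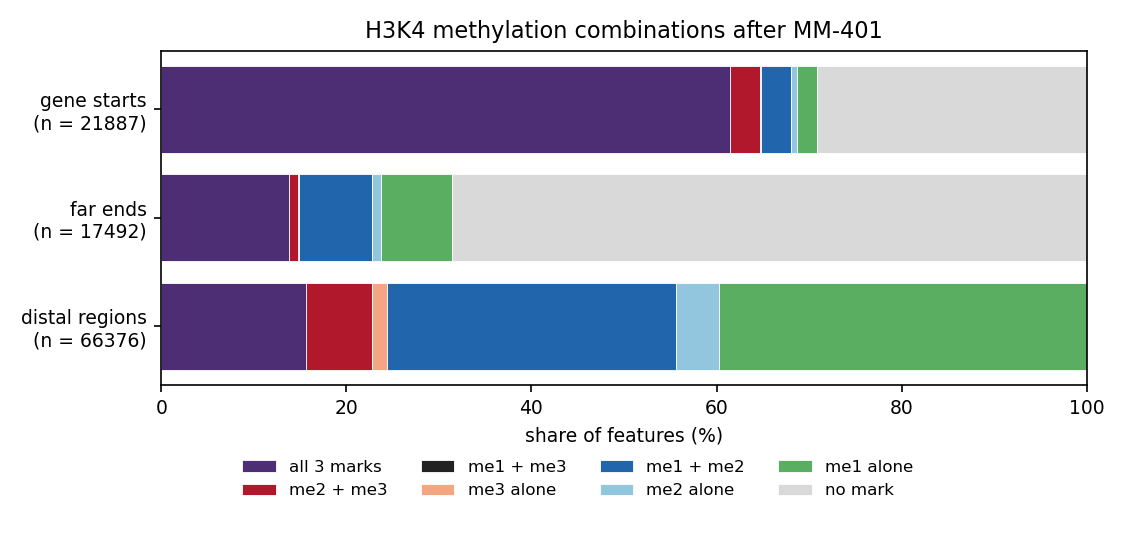
Shares of the combinations of H3K4me1, H3K4me2 and H3K4me3 (me1, me2, me3) after MM-401, as % of 21887 gene starts, 17492 far ends and 66376 distal regions. All 3 marks hold 61.5% of starts, 13.8% of far ends and 15.6% of distal regions, and H3K4me1 alone holds 39.7% of distal regions.

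At starts with all 3 marks H3K4me2 was the widest mark and H3K4me3 the one with most tags per M. The median widths were 2544 bp for H3K4me1 (quartiles 1780 and 4082), 3565 bp for H3K4me2 (2784 and 4980) and 2986 bp for H3K4me3 (2365 and 3822). The median levels were 8.06, 28.1 and 50.8 tags per M, or 2.48, 7.52 and 16.2 tags per M per kb of peak. At starts with H3K4me2 and H3K4me3 the H3K4me3 peaks were narrower, with a median of 2044 bp, and held 9.05 tags per M per kb. Starts with H3K4me1 and H3K4me2 had medians of 2375 and 1726 bp and 2.38 and 2.39 tags per M per kb, and those with H3K4me1 alone 1670 bp and 1.85 tags per M per kb.

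**Figure D2:**
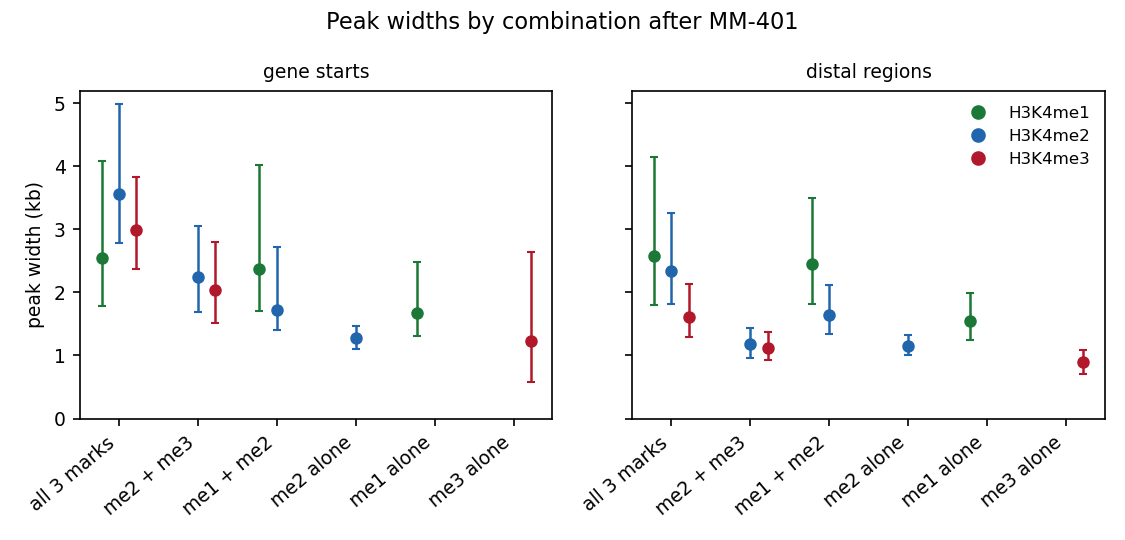
Width of the widest peak of each mark (kb) by combination, at gene starts (left) and distal regions (right) after MM-401. Points are medians and bars run from the lower to the upper quartile; at starts with all 3 marks the medians are 2544, 3565 and 2986 bp, and at such distal regions 2584, 2339 and 1616 bp.

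The genes with the most tags of all 3 marks include regulators of the pluripotent state. Trim71, an RNA-binding ubiquitin ligase of embryonic cells, had 20.9, 458 and 397 tags per M of H3K4me1, H3K4me2 and H3K4me3, over peaks of 6692, 55802 and 22610 bp. Its H3K4me2 peak was the widest of the library. Tet1, which oxidises methylated cytosine, had 13.8, 303 and 309.6 tags per M, with an H3K4me3 peak of 19298 bp. Klf9, a zinc finger transcription factor, had 60.7, 334 and 381 tags per M. Actn4, which crosslinks actin, went the other way, with 293, 209 and 146 tags per M and H3K4me1 over 44398 bp. At Tgif1, a repressor in TGF-beta signalling, the named end was the far one, with 97.5, 167 and 345 tags per M. Among the widest H3K4me3 peaks at gene ends were also Jade1, a subunit of a histone acetyltransferase complex (19573 bp), Ctbp2, a transcriptional corepressor (17644 bp), and the far end of the gene model 4933440N22Rik (17454 bp).

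Around the start itself the marks were arranged in layers. At the 10642 starts with all 3 marks and a known strand, the start base lay inside an H3K4me2 peak in 97.4%, inside an H3K4me3 peak in 95.8% and inside an H3K4me1 peak in 56.2% of cases. For each mark the summit of the peak with most tags among those within 1 kb was taken. Its median signed offset was 299 bp downstream for H3K4me3, 489 bp for H3K4me2 and 793 bp for H3K4me1. The H3K4me1 summits lay on both sides, with quartiles of -488 and 1343 bp, 65.4% downstream and a median absolute offset of 1067 bp. H3K4me1 cover dipped at the start and was higher on both sides, at 67.5% of starts 1 kb upstream and 87.6% 1 kb downstream.

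The 4 ways in which H3K4me1 sat around a start went with different ratios. Where an H3K4me1 peak covered the start base (5979 starts, among them Brd2, Sox2 and Tet1) the median log2 ratio of H3K4me1 to H3K4me3 was -1.99. Where H3K4me1 lay on both sides but not at the start base (2861 starts, 26.9%, among them Dido1, Gid8 and Rpl4) it was -2.78, with H3K4me3 peaks of 3606 bp. Where it lay downstream only (1332 starts, 12.5%, among them Zbtb37, Znfx1 and Ttc9c) it was -3.46. It was -4.28 where H3K4me1 lay upstream only (470 starts, 4.42%), a class that holds Trim71, Klf9 and Klf4 and had a median H3K4me3 width of 4374 bp. Arrangement and ratio share the same H3K4me1 peaks and are not independent measures.

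**Figure D3:**
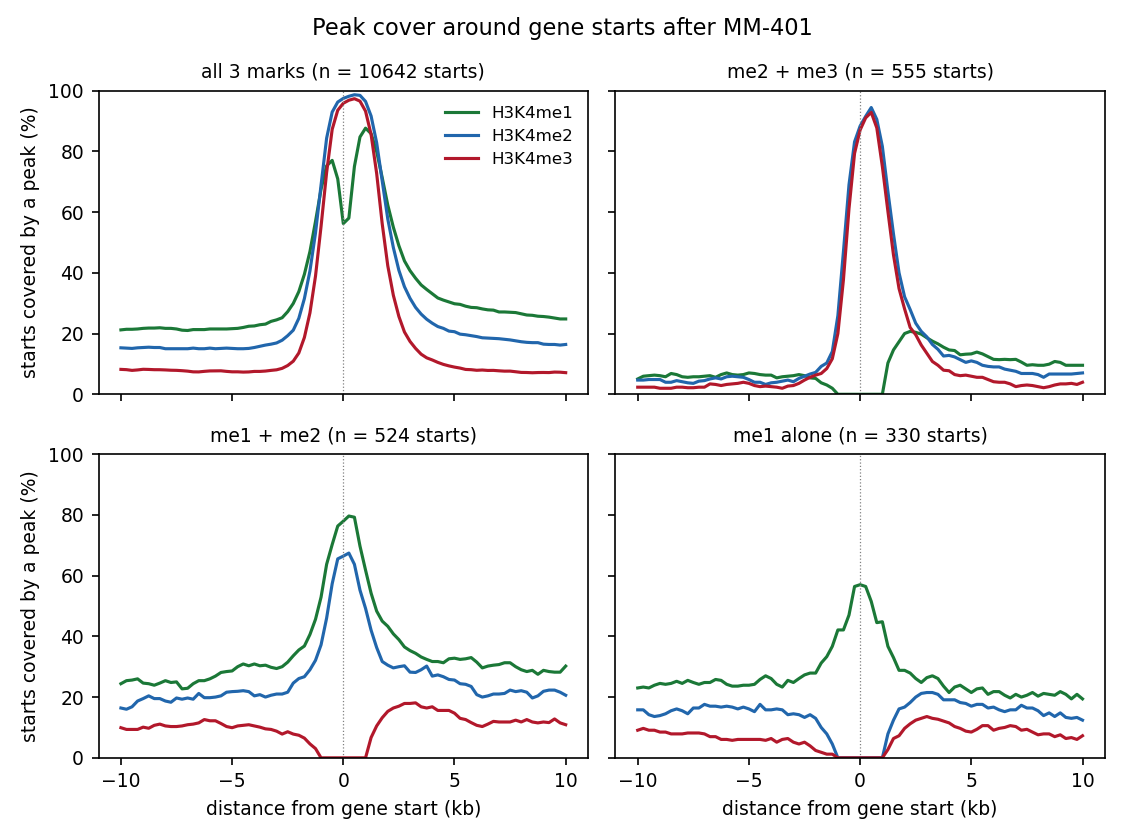
Share of gene starts covered by a peak (%) against distance from the start (kb, downstream to the right) after MM-401, for 4 combinations. H3K4me1 (green) covers 56.2% of start bases at starts with all 3 marks against 97.4% for H3K4me2 (blue) and 95.8% for H3K4me3 (red); a mark missing from a combination is at 0 within 1 kb by definition.

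H3K4me1 had fewer tags per M than H3K4me3 at most starts. The median log2 ratio of tags per M over the 13461 starts with all 3 marks was -2.44 (-2.47 to -2.41), a ratio of 0.184, and H3K4me1 was the higher mark at 1099 of them (8.16%). Per kb of peak the median was -2.68. At the far ends with all 3 marks it was -1.58 (-1.71 to -1.45), and H3K4me1 was higher at 25.9%. Over both ends of all genes the median was -2.34 (-2.37 to -2.31). The ratio was highest at narrow H3K4me3 peaks: over 5 classes of equal number the median was -1.21 in the narrowest (618 to 2225 bp) and lay between -2.77 and -2.52 in the others. Per kb it was -1.56 in the narrowest and between -2.95 and -2.69 in the others. The narrowest class also had the lowest median H3K4me3 level, 11.8 tags per M against 36.2 to 106 in the others. That level is the divisor of the ratio, so width class and ratio are not independent measures.

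The ends named for their ratio come from the 10092 that met the limits on tags and neighbouring genes. The 8 with the lowest ratio had strong H3K4me3 and a small H3K4me1 peak, which the ranking itself selects. Sin3a, the scaffold of a histone deacetylase complex, had 2.61, 106 and 273 tags per M of H3K4me1, H3K4me2 and H3K4me3, a ratio of 0.00955 (0.00724 to 0.0124). Nop58, a protein of small nucleolar ribonucleoproteins, had 2.3, 126 and 209 tags per M (0.011), and the splicing factor gene Sfpq had 2.57, 73.2 and 221 (0.0116). Jade1 stood at 0.014, with H3K4me3 over 19573 bp and H3K4me1 over 1981 bp. Morf4l1, a reader of methylated H3K36, the splicing regulator Tra2a, the immediate early gene Ier2 and Amd1, an enzyme of polyamine synthesis, lay between 0.0166 and 0.0175. All 8 H3K4me1 peaks there held between 51 and 104 tags, where the rule required at least 50. Ends with fewer H3K4me1 tags were not ranked.

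Among the same 10092 ends the 8 highest ratios belonged to ends touched by H3K4me1 peaks of 11818 to 32690 bp. Their H3K4me3 peaks were only 1314 to 3498 bp wide and held 51 to 102 tags, where the rule required at least 50. These ratios compare tag sums over unlike widths and are not given per kb, so they overstate the difference in density. The end of Trim8, a ubiquitin ligase gene, had 133, 18.3 and 5.18 tags per M, a ratio of 25.7 (20.1 to 33.2), and its H3K4me1 peak was 31522 bp wide. Ywhag, which encodes a 14-3-3 protein, had 131, 201 and 7.89 tags per M at its far end (16.7), and F2rl1, the gene of a protease-activated receptor, 63.1, 94.2 and 3.95 (16). Kndc1 stood at 14.8 at its far end, inside an H3K4me1 peak of 23092 bp that also touched the start of Utf1. Among the named starts with high ratios were Gpx4, a peroxidase that protects membrane lipids, with 65, 112 and 4.72 tags per M (13.8), and Dusp27 with 91.5, 24.5 and 7.12 (12.8). The 2 ends of Klf5, a transcription factor of naive pluripotency, differed: its H3K4me1 domain of 18314 bp touched both, while the ratio was 13 at the end at 99313412 and 0.477 at the end at 99298691 of chromosome 14. The last of the 8 was the far end of Ptpa, an activator of a protein phosphatase (12).

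Starts with H3K4me2 and H3K4me3 but no H3K4me1 within 1 kb included strong ones whose H3K4me1 began outside the window. The ends named here are of this kind; for Csnk1a1 and Igf2bp1 the annotation used gives no strand. Foxo3, a stress-responsive transcription factor, had 112 and 219 tags per M of H3K4me2 and H3K4me3, with H3K4me1 at 1187 bp, and Epha2, an ephrin receptor, 136 and 191 with H3K4me1 at 1279 bp. Csnk1a1, a kinase of the beta-catenin destruction complex, had 108 and 232 (H3K4me1 at 3014 bp), and Igf2bp1, an mRNA-binding protein of embryonic cells, 110.5 and 211 (1415 bp). The H3K4me3 peaks of these 4 genes were 7984 to 10630 bp wide. Of all 707 such starts 166 (23.5%) had an H3K4me3 peak that itself overlapped H3K4me1, and 256 (36.2%) had H3K4me1 within 5 kb.

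As a class they were weaker than starts with all 3 marks, with a median of 9.05 against 16.2 tags of H3K4me3 per M per kb. Starts with H3K4me3 and a strand were put in 5 classes of nearly equal number by their H3K4me3 level. In the lowest class (1.08 to 20.8 tags per M) 13.4% (12 to 14.9) lacked H3K4me1. In the classes above it 6.15%, 2.45%, 1.42% and 2.15% did. Germline genes stood among the weak ones: Sycp1, a part of the synaptonemal complex, had 8.73 and 9.36 tags per M of H3K4me2 and H3K4me3, with the nearest H3K4me1 peak 10250 bp away. Taf7l, a germ cell counterpart of a TFIID subunit, had 5.5 and 5.88 tags per M with H3K4me1 49047 bp away.

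The X chromosome held a large share of them. Of 412 X-linked starts with H3K4me3 and a strand, 156 (37.9%, 33.2 to 42.7) had H3K4me2 and H3K4me3 without H3K4me1, against 396 of 10800 (3.67%, 3.32 to 4.04) on the autosomes. Any H3K4me3 start without H3K4me1 made up 38.6% on X, and 2.07% to 8.92% on the 18 autosomes with strands. Levels were lower on X too: at starts with all 3 marks the medians were 2.84, 13.4 and 26.6 tags per M, against 8.19, 28.3 and 51.5 on the autosomes. The shares on X and autosomes also differed within the 5 classes of H3K4me3 level. These classes hold nearly equal numbers of starts, not equal levels, and the lowest spans 1.08 to 20.8 tags per M. They were not set on the level of H3K4me1. In the lowest class 55.9% (47.9 to 63.7) of X starts lacked H3K4me1, against 10.1% (8.82 to 11.4) of autosomal ones, and in the next class 35% (27.2 to 43.4) against 4.1% (3.29 to 5.04). In the highest class, with 14 X starts, 7.14% (0.181 to 33.9) on X and 2.11% (1.56 to 2.8) on autosomes could not be separated at this number. On the Y chromosome 5 of 218 starts with a strand had H3K4me3 after MM-401, and 7 had it after 4-OHT and 7 in untreated cells. How many X copies the cells carried is not given in the sources used here and was not derived from these peaks. The part of X copy number and of the lower levels in these shares was not tested.

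Where X starts did carry all 3 marks, their H3K4me1 was narrower, and all marks were thinner per kb. The median levels were 1.7, 4.76 and 11.1 tags per M per kb of H3K4me1, H3K4me2 and H3K4me3 on X, against 2.49, 7.61 and 16.8 on the autosomes. The summed H3K4me1 width had a median of 1630 bp on X and 3345 bp on the autosomes, and that of H3K4me3 2852 and 3023 bp. The median log2 ratio of tags was -3.39 (-3.58 to -3.2) on X and -2.47 (-2.5 to -2.45) on the autosomes, while per kb of peak it was -2.64 (-2.72 to -2.54) on X and -2.73 (-2.74 to -2.71) on the autosomes. Hcfc1, a subunit shared by SET1 and MLL complexes, had 1.98, 39.6 and 141 tags per M on X, and Kdm6a, an H3K27 demethylase, 2.21, 29.7 and 117. Their H3K4me3 lay above the X median of 26.6 tags per M, so these 2 genes are not typical of X in that mark. On X distal regions H3K4me2 with H3K4me3 made up 19.3%, against 6.91% on autosomes.

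**Figure D4:**
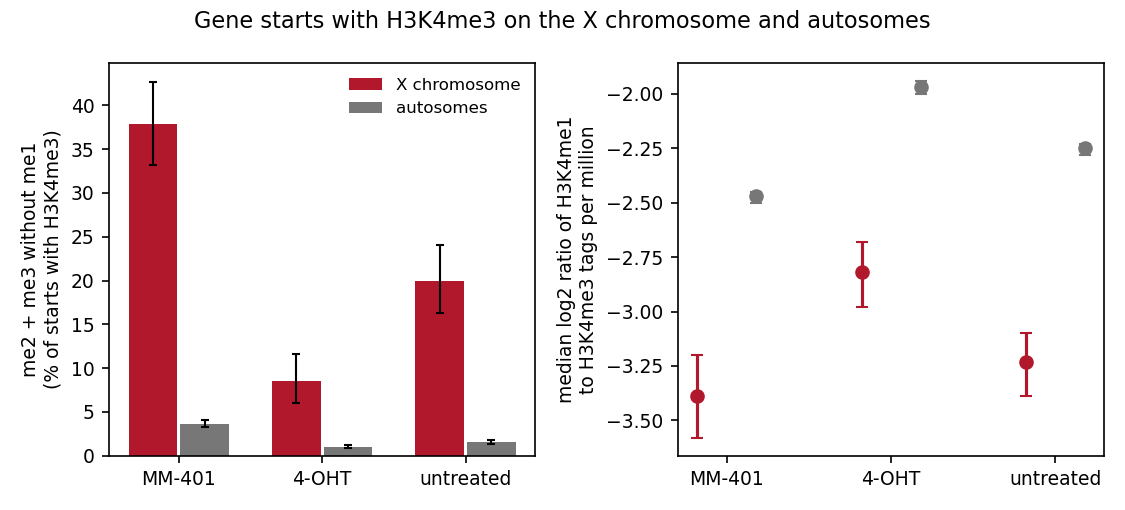
Left, starts with H3K4me2 and H3K4me3 but no H3K4me1 as % of starts with H3K4me3, with exact 95% intervals; right, median log2 ratio of H3K4me1 to H3K4me3 tags per M at starts with all 3 marks, with its 95% interval. X (red) lies at 37.9% after MM-401, 8.53% after 4-OHT and 20% in untreated cells, above the autosomes (grey, 3.67%, 1.04% and 1.54%) in each; in the ratio X lies below them in each, at -3.39 against -2.47 after MM-401.

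Starts with H3K4me1 and H3K4me2 but no H3K4me3 differed in how far away it lay. H3K4me3 was found within 2 kb of 20.3% of these 696 starts and within 10 kb of 56%. By the rule none had it within 1 kb, so the 64.8% of all starts that did are no background for them. Lrrc2, with 75.2 and 127 tags per M of H3K4me1 and H3K4me2, had an H3K4me3 peak at 1118 bp, and its H3K4me1 domain of 18014 bp was that of its neighbour Tdgf1. Ltbp4, which binds latent TGF-beta, had 29.7 and 157 tags per M and H3K4me3 at 1119 bp. At others H3K4me3 was farther away and H3K4me1 wide: Usp7, a deubiquitinase, had 187 and 8.99 tags per M under an H3K4me1 peak of 44044 bp, and Arhgef2, a microtubule-linked exchange factor, had 149.7 and 13.4 under 35781 bp, with H3K4me3 12409 and 8756 bp away. Elobl had 107 and 66.1 tags per M and H3K4me3 at 6093 bp. These are outermost starts, and whether H3K4me3 lay at an inner start of these genes was not examined.

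At starts with H3K4me1 alone the mark was thinner, with a median of 1.85 tags per M per kb against 2.48 at starts with all 3 marks. The named ones were wide domains: the amino acid transporter gene Slc7a7 (72 tags per M over 16803 bp), Ap4s1, a subunit of an adaptor complex (67.5 over 21795 bp), and the matrix protein gene Sparcl1 (49 over 12793 bp). Ubash3a (55) and Mdm4, a p53 inhibitor gene (33.4), were named for their far ends. H3K4me2 alone was a narrow edge case among the named genes: at Prss16, Tbc1d5, Hpse2, Gas7 and Nkain3 it held 22.1 to 33.5 tags per M, and H3K4me1 and H3K4me3 lay 1084 to 2434 bp from the end.

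H3K4me3 without H3K4me2 was nearly absent at gene ends. H3K4me3 alone stood at 27 ends. At Tasor2, a subunit of a silencing complex, it held 66.1 tags per M, with H3K4me2 at 1040 bp. The others named were weak and far from the other marks: Asmt (11.1 tags per M), Vmn2r29 (3.71), Xlr3a (3.33) and Fsip2 (2.17). Vmn2r29 and Xlr3a belong to families of similar genes, where reads may be placed at the wrong copy, so they are uncertain. H3K4me1 with H3K4me3 stood at 8 ends, of which the rule named the far ends of Il1a (2.3 and 72.8 tags per M, H3K4me2 at 1040 bp) and Epha6 (2.21 and 39.3, H3K4me2 at 1110 bp).

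Genes of the pluripotency network and of early lineages mostly carried the full set of marks, and their ratios spread widely. Over the 230 genes of 14 lists, 174 starts had all 3 marks, 9 had H3K4me2 with H3K4me3, 11 had H3K4me1 with H3K4me2, 7 had H3K4me1 alone, 1 had H3K4me2 alone and 28 had none. For 71 of these genes the start was placed from H3K4me3 cover. The share with all 3 marks over all genes was 61.5%.

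All 14 core pluripotency genes had all 3 marks, under wide peaks with a median H3K4me3 width of 6418 bp against 2986 bp over all starts with all 3 marks. Their median log2 ratio was -1.70, and 8 of 14 lay above the median of all starts. Sox2, a founding pluripotency factor, had 42.9, 129 and 333 tags per M of H3K4me1, H3K4me2 and H3K4me3, and Tdgf1, a co-receptor for Nodal, 105, 127 and 157. L1td1, an RNA-binding protein of pluripotent cells, had 7.02, 92.6 and 97.2, and the corepressor Trim28 had 5.54, 78.2 and 156. Dppa2 was the gene with H3K4me1 above H3K4me3, at 55.3, 41.3 and 33.3 tags per M, a ratio of 1.66 (1.49 to 1.86). Per kb of peak the median log2 ratio of the list was -2.47, closer to that of all starts (-2.68).

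In the naive pluripotency list 14 of 16 genes had all 3 marks, with a median log2 ratio of -1.03, or -2.36 per kb. Tbx3, a transcription factor of the naive state, had 82, 178 and 209 tags per M, Zfp42 had 12.2, 57.1 and 112, and Klf4, a reprogramming factor, 6.03, 91.2 and 264. H3K4me1 was above H3K4me3 at Dppa5a (ratio 2.59), Tcl1 (1.52) and Fbxo15 (1.07, 0.99 to 1.16, an interval that holds equal tags per M). Nr5a2 had H3K4me1 with H3K4me2 at its outermost start and all 3 marks at another. Of 13 formative and primed genes 12 had all 3 marks, with a median of -1.30. Etv5 had the widest H3K4me1 among them, with 255, 122 and 120.1 tags per M and 49875 bp. Otx2, a factor of the step out of the naive state, had 42.9, 92.8 and 90.7, Sox11 had 5.4, 90.3 and 166, and Sall2 had 27.1, 14.6 and 4.56, a ratio of 5.94 (4.54 to 7.89). Dnmt3a had no mark at its outermost start and all 3 at another.

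The lists of developmental genes had higher median ratios than all starts, also per kb. Per kb they had less H3K4me3: neuroectoderm genes held 2.92 tags of H3K4me1 and 7.84 of H3K4me3 per M per kb, against 2.48 and 16.2 over all starts with all 3 marks. A higher ratio was not particular to developmental genes. Per kb the median log2 ratio was -0.94 for germline and -1.57 for fibroblast genes, against -2.68 over all starts. Ribosomal protein genes (-3.30) and H3K4 methyltransferase genes (-2.91) lay below. All 14 neuroectoderm genes had all 3 marks, with a median log2 ratio of -0.97 (-1.54 per kb) and 12 of 14 above the median of all starts. Pax6 had 16.2, 28.8 and 13.6 tags per M, Six3 had 26.2, 62.5 and 18, and Sox1, an early neural factor, 7.2, 81 and 82.3. In the primitive streak and mesoderm list 14 of 16 had all 3 marks (median -1.30, -1.75 per kb), among them T (9.68, 28.8 and 23.8 tags per M), Eomes (23.2, 55.9 and 72.2) and Nodal (59.1, 97.6 and 163). Cer1 and Meox1 had H3K4me1 alone.

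Hox genes, which pattern the body axis, had all 3 marks at 35 of 39 starts, with a median log2 ratio of -0.50 and 32 of 35 above the median of all starts. H3K4me1 was above H3K4me3 at 11 of them, against 8.16% of all starts with all 3 marks. Their median H3K4me3 level was 20.3 tags per M. Starts of all genes in the lowest class of H3K4me3 level (1.08 to 20.8 tags per M) had a median log2 ratio of -0.67, near that of the Hox list. The part of the H3K4me3 level in the list ratios was not tested. Hoxa2 had 50.9, 23.7 and 9.21 tags per M, a ratio of 5.52 (4.57 to 6.73), Hoxb1 had 16.9, 18.9 and 5.57, and Hoxd12 had 13.1, 23.5 and 4.72. Hoxd1 and Hoxc13 lay lowest, at 0.0729 and 0.153. Neighbouring Hox genes can share a peak, so their values are not all separate; the H3K4me1 peak at Hoxa2 was 14881 bp wide. Hoxb3, Hoxb8 and Hoxd4 had H3K4me1 with H3K4me2, with H3K4me3 at 1019 bp from Hoxb3, and Hoxc4 had none at its outermost start.

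Of 12 trophectoderm genes 11 had all 3 marks (median log2 ratio -0.55, -0.86 per kb). Their median H3K4me3 level of 14.8 tags per M also falls in the lowest class of level, where the median over all genes was -0.67. Hand1, a placental regulator, had 27.1, 47.9 and 13.4 tags per M and Cdx2 had 17.1, 37.9 and 25.1, while Tfap2c, which is also used in pluripotent cells, had 31.7, 119 and 222. Of 13 primitive endoderm genes 8 had all 3 marks (median -1.20), among them Gata6 (26.8, 70.6 and 60.9 tags per M), and Afp, Dab2 and Gata4 had none at the start.

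Germline and blood lists held 7 of the 9 listed starts with H3K4me2 and H3K4me3 but no H3K4me1, a combination at 3.23% of all starts. Of 16 germline genes 9 had all 3 marks and 4 had H3K4me2 with H3K4me3 (Rhox13, Sycp1, Taf7l and Tex11), of which 3 are X-linked. Their H3K4me3 peaks were narrow, with a median of 1840 bp at the 9 starts, and held 3.93 tags per M per kb against 16.2 over all starts. Sycp3, part of the meiotic chromosome axis, had 5.4, 11.9 and 8.9 tags per M. Of 14 blood and endothelial genes 3 had all 3 marks (Gata2, Kdr and Tal1) and 3 had H3K4me2 with H3K4me3: Ikzf1 with 27.2 and 40.8 tags per M, Cd34 with 7.72 and 6.89, and Spi1 with 8.43 and 7.97. Of 18 tissue-restricted genes such as Alb and Ins1, 10 had no mark, against 29.2% of all starts, and 2 had all 3. Of 13 fibroblast genes 8 had all 3 marks (median log2 ratio -1.04, -1.57 per kb) and 5 had none.

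The median ratio of ribosomal protein genes was below that of all starts. All 18 had all 3 marks, with a median log2 ratio of -2.89 (-3.30 per kb), 5 of 18 above the median of all starts and H3K4me1 above H3K4me3 at none. Rps2 had 4.32, 72.9 and 189.5 tags per M, Rpl4 had 21.2, 106 and 293, and Rps24, the highest ratio of the list, 36.4, 56.6 and 110.2. Of 16 genes of H3K4 methyltransferases and their subunits 14 had all 3 marks (median -2.60). Kmt2a, the gene of MLL1, had 19, 56.7 and 118 tags per M at its start, Setd1b had 76.2, 188 and 227, and Kmt2d had H3K4me2 with H3K4me3 (54 and 112), with H3K4me1 at 2573 bp. MLL1 binding was not mapped after MM-401, so these values do not show whether the inhibitor acted.

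**Figure D5:**
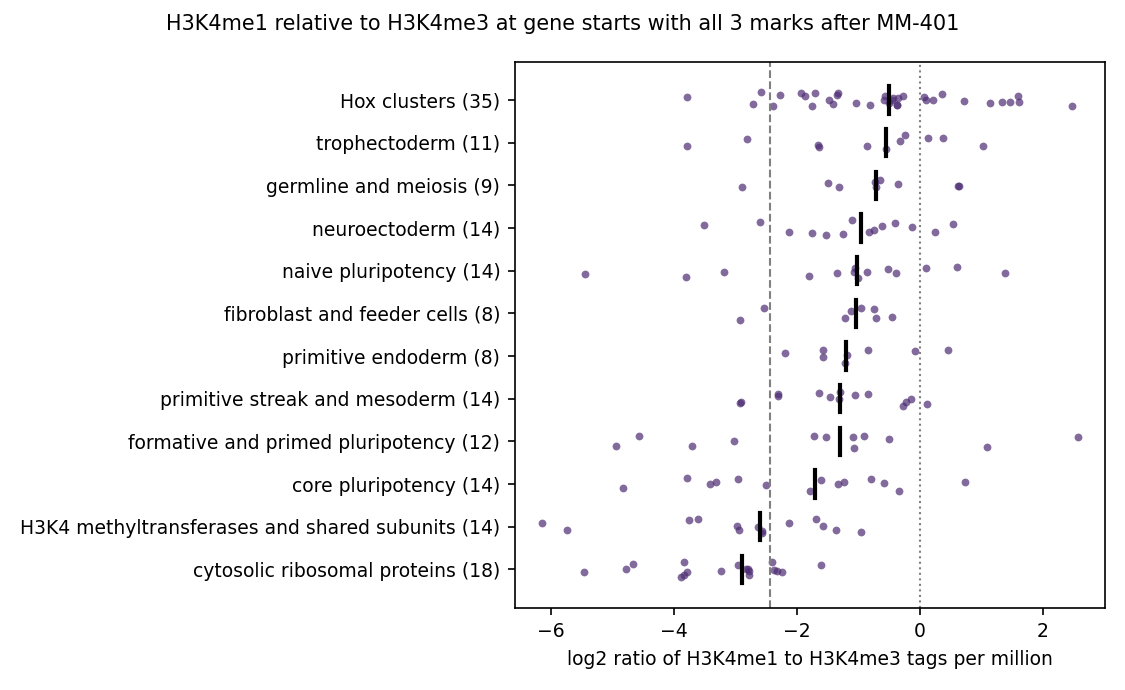
Log2 ratio of H3K4me1 to H3K4me3 tags per M at starts with all 3 marks after MM-401, 1 point per gene, for the 12 lists with at least 8 such genes (number in brackets). Black bars are list medians, the dashed line is the median of all 13461 starts (-2.44) and the dotted line is equal tags per M. With different antibodies this line does not mean equal amounts of the marks. Medians run from -2.89 for ribosomal proteins to -0.50 for Hox genes.

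At distal regions, of which 51.3% lay in gene bodies, H3K4me1 was the mark found most often, at 86.5% of them. Its list was also the longest, with 82150 peaks against 32191 for H3K4me3. Of 66376 distal regions 26363 (39.7%, 39.3 to 40.1) had H3K4me1 alone, 20716 (31.2%) H3K4me1 with H3K4me2, 10351 (15.6%) all 3 marks, 4759 (7.17%) H3K4me2 with H3K4me3, 3099 (4.67%) H3K4me2 alone, 1077 (1.62%) H3K4me3 alone and 11 H3K4me1 with H3K4me3. With each list at 32191 peaks, the first 3 counts were 10254, 4478 and 5973. Unlike at starts, H3K4me1 was the widest mark: at distal regions with all 3 marks the medians were 2584, 2339 and 1616 bp, with H3K4me1 and H3K4me2 they were 2456 and 1646 bp, and H3K4me1 alone had 1553 bp. H3K4me3 there held 2.89 tags per M per kb, against 16.2 at starts with all 3 marks, while H3K4me1 held 2.45 against 2.48.

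At distal regions with all 3 marks the median log2 ratio was 0.33 (0.29 to 0.37; quartiles -0.85 and 1.39), and H3K4me1 was higher at 6009 of 10351 (58.1%). With each list at 32191 peaks the median was 1.03. Per kb of peak the sign turned, to -0.29, since summed widths were 2729 bp for H3K4me1 and 1629 bp for H3K4me3. Regions near the end of a noncoding gene or an inner start of a protein-coding gene (3005 of them) had a median of -0.38, and the other 7346 had 0.52.

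The distal combinations differed in where they lay. A region with all 3 marks was within 1 kb of a noncoding gene's end or an inner start in 29% of cases, one with H3K4me1 and H3K4me2 in 11.9%, one with H3K4me1 alone in 7.5%, one with H3K4me2 alone in 13.2%, one with H3K4me2 and H3K4me3 in 9.71% and one with H3K4me3 alone in 3.53%, against 12.6% of all distal regions. Median distances to the nearest protein-coding start were 26.9 kb for all 3 marks, 36.4 kb for H3K4me1 with H3K4me2, 37.7 kb for H3K4me1 alone, 92.5 kb for H3K4me2 with H3K4me3 and 149.7 kb for H3K4me3 alone. Gene bodies held 52.3%, 52.4% and 56.4% of the first 3 kinds, 29.6% and 21.8% of the others, and 51.3% of all distal regions. X held 14.2% of the regions with H3K4me3 alone, 5.61% of those with H3K4me2 and H3K4me3 and 1.48% of those with all 3 marks, against 2.08% of all distal regions.

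The strongest distal regions with all 3 marks were long domains. One inside Esrrb, a naive pluripotency factor (chr12:86460789-86499749), had 179.8, 328 and 371 tags per M, and its H3K4me3 peak of 27651 bp was the widest of the library. Another inside Myo10 (chr15:25748945-25793088) lay at an inner annotated start and had 232, 286 and 208 tags per M. The region over Malat1, a noncoding RNA gene (chr19:5792571-5813366), had 65.6, 155 and 468. Among regions with H3K4me1 and H3K4me2, one inside Kat6b, a histone acetyltransferase gene (chr14:21530151-21573893), had 137 and 72.6 tags per M over an H3K4me1 peak of 43743 bp. One inside Tcf7l1, a Wnt pathway repressor gene (chr6:72745195-72771605), had 114 and 78, and one inside Tmem267 (chr13:119595334-119603404) 122 and 84.2. H3K4me1 alone was strongest inside Msantd2 (chr9:37495067-37510050, 35.1 tags per M over 14984 bp). The named regions with H3K4me1 and H3K4me3, inside Zmynd11, Shc2 and Selenon, were faint, with 2.48 to 4.73 and 1.47 to 2.32 tags per M.

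Distal regions with H3K4me3 and no H3K4me1 had strong examples at repeated sequence. The strongest (chr17:39842352-39849367) overlapped Rn18s-rs5, a ribosomal RNA related sequence, with 434 and 465 tags per M of H3K4me2 and H3K4me3. Inside Sfi1 a region of 5564 bp (chr11:3189710-3195273) had H3K4me3 alone at 145 tags per M, and another nearby (chr11:3149302-3151784) had H3K4me2 alone at 39.9. Reads from other copies of such sequences could be placed there, so these regions are uncertain. Impact, an imprinted gene, had one inside its body (chr18:12971403-12975607) with 26.6 and 66 tags per M, and Rbpms one (chr8:33867545-33893266) with 83.8 and 13.6.

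Promoters of the combinations differed in CG content. For 15746 of the 17492 starts a RefSeq promoter began within 1 kb of the start. All 3 marks went with a median of 21 CG per 300 bases (quartiles 14 and 29), H3K4me2 with H3K4me3 with 15, H3K4me2 alone with 7, H3K4me1 with H3K4me2 with 5, H3K4me1 alone with 4 and no mark with 2. At least 10 CG were held by 87% of promoters with all 3 marks, 67.7% with H3K4me2 and H3K4me3, 12.5% with H3K4me1 and H3K4me2, 3.29% with H3K4me1 alone and 57.6% of all promoters. On X, promoters with H3K4me2 and H3K4me3 had the same median of 15 CG, and those with all 3 marks 17.

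Short motifs were counted on both strands, and a match is a description, not a site. The GC box letters GGGCGG lay in 68% of promoters with all 3 marks, 55.9% with H3K4me2 and H3K4me3, 24% with H3K4me1 and H3K4me2 and 46.8% of all. TATAAA lay in 6.65%, 9.96% and 13.3% of the same combinations, 28.6% of promoters with no mark and 13.7% of all. CCAAT lay in 39.2%, 41.1% and 37.1%, and in 39.4% of all. The median GC content was 61.7%, 58% and 53.7% in these combinations, 44.2% with no mark and 56.3% over all promoters. The part of base composition in the motif shares was not tested. Within the starts with all 3 marks, the class of 5 with fewest CG (0 to 12) had a median log2 ratio of -1.63 and H3K4me3 peaks of 2388 bp, and the class with most (32 to 63) had -2.69 and 3492 bp.

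The same 17492 starts in the other cultures were set beside these. H3K4me2 with H3K4me3 made up 3.17% of starts after MM-401, 0.886% after 4-OHT and 1.5% in untreated cells, and all 3 marks 60.8%, 65.7% and 65.1%. With lists cut to equal numbers of peaks per mark, H3K4me2 with H3K4me3 made up 3.17%, 2.01% and 4.29%, so the order of MM-401 and untreated cells turned. The H3K4me1 libraries held 22.2, 61.8 and 36.9 M tags in these groups, and the MM-401 libraries were processed in another folder, so depth, batch and treatment cannot be told apart. Of the 10642 starts with all 3 marks after MM-401, a choice made on the MM-401 lists, 99.7% had all 3 after 4-OHT and 99.3% in untreated cells. Of the 555 with H3K4me2 and H3K4me3, 84.5% had all 3 after 4-OHT and 73.3% in untreated cells. Among the named genes Igf2bp1 lacked H3K4me1 in every group, and Foxo3 lacked it after MM-401 and 4-OHT, but untreated cells had 27.8 tags per M of it there.

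The median log2 ratio at starts with all 3 marks was -2.49 after MM-401, -2.0 after 4-OHT and -2.27 in untreated cells, and -2.49, -2.03 and -2.31 with equal lists. At distal regions with all 3 marks it was 0.33, 0.48 and 0.39 as deposited, and 0.33, -0.21 and -0.27 with equal lists. The excess of starts without H3K4me1 on X was present in each group, at 37.9% against 3.67% on the autosomes after MM-401, 8.53% against 1.04% after 4-OHT and 20% against 1.54% in untreated cells, in the reverse order of H3K4me1 depth, whose part in this was not tested. Distal regions with H3K4me2 and H3K4me3 after MM-401 carried H3K4me1 in 41.8% of cases after 4-OHT and 29.9% in untreated cells.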

How the data were processed

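Chromatin immunoprecipitation and sequencing gave 1 peak list per mark and culture; the 3 MM-401 lists were compared, with those of 4-OHT and untreated cells beside them. Per the file headers the authors called peaks with MACS 1.4.2 in each library alone against an input, without duplicate tags, at a p cutoff of 1e-05. The submitters' processing notes name Bowtie2, SAMtools 1.5, MACS2 and mm10; the headers were followed on the caller. The deposited counts are tags per peak, without correction for library size. Per the file headers the deposited score is a scaled negative log10 of the p of the peak and was used to rank peaks within a list. The deposited fold over background is a ratio that was not used, nor was the deposited false discovery rate in percent. The deposited peak widths are in bp. Per the file headers the MM-401 libraries were processed in another folder than the rest.

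Computed here with Python 3.11.15, numpy 2.4.6, pandas 2.3.3, scipy 1.17.1 and matplotlib 3.10.9, and checked on simulated data: combinations, widths and tags per M at gene ends and distal regions on GRCm38.p6 genes, of which 4395 (all 511 of chromosome 18 among them) had no strand. Shares have exact Clopper-Pearson intervals, ratios at 1 gene exact Poisson intervals, and medians order-statistic intervals over features. Each group is 1 library, so no test was made. Alternatives were equal list lengths, a stricter score, other windows, starts only, a stricter overlap and tags per kb. The features, lists and rules were chosen with earlier results of these data known. Named were the 5 genes with most tags per combination (without gene models, ends within 2 kb of another gene, or a fuller combination at the other end), the 8 highest and 8 lowest ratios with at least 50 tags of each mark, the 5 widest H3K4me3 peaks, the 3 strongest distal regions per combination, and list genes. Some results of these rules are not reported here.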

Additional observations from a re-analysis of the deposited data

How the results depend on the processing

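No paired analysis was possible because each group has 1 library per mark. Of 57 alternative values of 11 results, 26 stayed within the limits set for them, 30 moved and 1 changed sign. With each list cut to its 32191 highest scores, gene ends numbered 9941 with all 3 marks (16428 as deposited), 7125 with H3K4me2 and H3K4me3 (910), 966 with H3K4me1 and H3K4me2 (2413) and 1326 with H3K4me1 alone (2134). Their median log2 ratio was -1.98 (-2.34), and the H3K4me3 widths were 3304 bp with all 3 marks (2956) and 2585 bp without H3K4me1 (1990). Distal counts were 5973 (10351), 4478 (20716) and 10254 (26363) for all 3 marks, H3K4me1 with H3K4me2 and H3K4me1 alone, with a ratio of 1.03 (0.33). With a score of at least 100 these distal counts were 6457, 13691 and 17128, the distal ratio 0.10, ends without H3K4me1 under H3K4me3 2600 and the widths 3088 and 2355 bp. Within 500 bp such ends numbered 1526, with a ratio of -2.51 at ends with all 3 marks and a width of 2702 bp at those without H3K4me1. Within 2 kb the ratios were -2.18 at ends and 0.37 at distal regions and the widths 2934 and 1775 bp. Starts only gave 696 with H3K4me1 and H3K4me2, 452 with H3K4me1 alone, a ratio of -2.44 and a width of 2986 bp. Per kb of peak the ratio was -2.60 at ends and -0.29 at distal regions, where the sign turned with the greater width of H3K4me1 peaks. Shorter lists hold fewer weak peaks by construction; for the other moves the cause was not tested. A missing peak was not detectable at this depth and does not show that the mark is absent.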
